A study of Arabidopsis thaliana with 16 samples.

Results

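Rosettes of the Arabidopsis thaliana atg5 mutant harvested on low nitrate at 30 days were compared with rosettes of the same mutant grown on high nitrate. The mutant line is atg5-3 (SALK_02060), and its wild type is Col-0. The comparison uses 4 of the 16 arrays in the series, picked by their labels. Both low nitrate arrays (2 mM, T30) and both high nitrate arrays (10 mM) come in pairs, with 1 array of each kind from culture 1 and 1 from culture 2. The cultures were grown one after the other, some months apart. Each array holds RNA from the mixed rosettes of more than 6 plants, grown under a short-day cycle (8 h light, then 16 h dark). The study also holds Col-0 on both nitrate supplies, an atg9 mutant on low nitrate, and low nitrate rosettes of all these genotypes at 60 days (T60).

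The age of the high nitrate rosettes is open. Their titles and the series design give 30 days, whereas their source and description fields give 60 days. Every difference below is low nitrate T30 minus high nitrate, and an effect of nitrate and an effect of age cannot be told apart in it. The low nitrate arrays carry 30 days in all these fields.

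Autophagy carries cytoplasm, proteins and whole organelles to the vacuole for breakdown, and it recycles nitrogen in leaves that are short of it or ageing. ATG5 is part of the enzyme that attaches ATG8 to a lipid of the growing autophagosome membrane, so plants without it form no normal autophagosomes. Such mutants are known for early leaf senescence and for raised salicylic acid defence in ageing rosettes. Nitrate is the main nitrogen source in these cultures, and it is also a signal that adjusts transport, assimilation and growth genes.

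The values are MAS5 signals on a linear scale, and differences and their standard errors (SE) are on the log2(signal + 32) scale, which understates the change of dim genes. Of 22810 probe sets, 13648 were bright enough to be tested, and 7311 of these name 1 gene in the annotation used here. A probe set passed when limma's adjusted p over all 13648 was under 0.05. No probe set was named ATG5, so the mutated gene was not checked. On a list of 37 leaf markers, 6 photosynthesis genes had a probe set named in this annotation. Their summed signal was 115876 and 138062 on low nitrate and 111440.0 and 93979 on high nitrate. Of 7 root markers 2 had a named probe set, and their summed signal was 1189 and 1059 on low nitrate against 236 and 287 on high nitrate. The flower marker list had 1 named probe set and the seed list none, and no marker was at 0. Outside these 4 arrays 2 stood apart. The Col-0 low nitrate T30 array of culture 1 had a lower quartile signal of 89.3, and the atg5 low nitrate T60 array of culture 1 had a ratio of 9.05 between its actin 3′ and 5′ control probe sets, against at most 3.04 in the other arrays. Median signals ran from 154 to 254. In whole rosettes, fewer cells of a type and less RNA per cell cannot be told apart.

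Low nitrate T30 rosettes of atg5 differed from high nitrate rosettes at 1856 probe sets, 13.6% of those tested. Of these, 744 were higher (5.45%) and 1112 were lower (8.15%). Every one moved the same way in both cultures, as did 76.0% of all probe sets tested. Passing was judged on these same differences, so that agreement is no further evidence. The falls were larger than the rises. Among these, at least a 4-fold difference was seen at 39 higher and 308 lower probe sets, and a difference of at least 16-fold was seen at 0 higher and 37 lower ones. Across all probe sets tested the difference of culture 1 and that of culture 2 correlated with r = 0.73, a value across probe sets, which are not independent replicates. Both culture 2 arrays carried much of the count. It was 88 without the culture 2 high nitrate array, 114 without the culture 2 low nitrate array, 1055 without the culture 1 low nitrate array and 1438 without the culture 1 high nitrate array.

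The ATG8 genes were lower on low nitrate at T30. ATG8 is the ubiquitin-like protein that coats the autophagosome membrane and captures cargo. All 9 members tested passed, with a median difference of -1.36 and a range from -2.65 to -0.78, where 8.15% of all probe sets passed as lower and the median over all probe sets was 0.01. The median was -1.1 in culture 1 and -1.57 in culture 2.

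ATG8H had signals of 339 and 231 on low nitrate (cultures 1 and 2) and of 1235 and 3001 on high nitrate, a difference of -2.65 ± 0.42 (SE, adjusted p = 0.00347). Its high nitrate arrays lay above both low nitrate arrays, and they also lay apart from each other. ATG8E read 469 and 457 on low nitrate against 1007 and 3003 on high nitrate, with a difference of -1.84 ± 0.43 (adjusted p = 0.018). For ATG8A, listed as APG8A, the signals were 739 and 821 against 2177 and 2888 (-1.65 ± 0.25, adjusted p = 0.00286). In ATG8A both cultures gave a like gap, unlike in ATG8H and ATG8E, where the culture 2 gap was the wider.

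ATG8F and ATG8I, the latter listed as APG8H, were the brightest probe sets of the family, although signals of different probe sets cannot be ranked as levels. ATG8F read 3187 and 2644 on low nitrate against 6845 and 7192 on high nitrate (-1.26 ± 0.26). ATG8I read 2926 and 2570.3 against 5869 and 6299 (-1.14 ± 0.21). The difference was smallest in ATG8C, at 1088 and 944 against 1627 and 1904 (-0.78 ± 0.19). Both low nitrate arrays lay below both high nitrate arrays for all 9 genes, as they did for 32.6% of all probe sets tested. All 9 had passed on the same arrays, so this restates the call and is no further evidence. ATG8B (-1.49 ± 0.27), ATG8D (-1.36 ± 0.20) and ATG8G (-1.16 ± 0.25) lay between ATG8A and ATG8C.

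**Figure D1:**
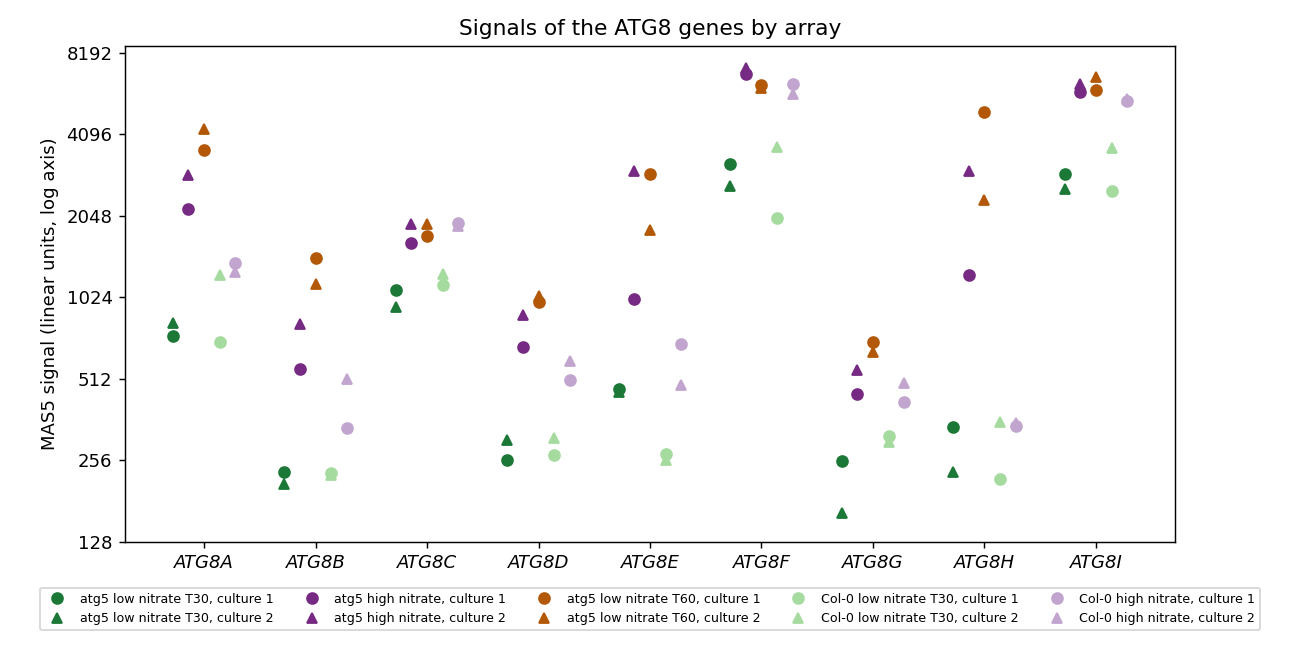
MAS5 signal (linear units, log axis) of the 9 ATG8 genes in atg5 and Col-0, 1 point per array, with circles for culture 1 and triangles for culture 2. In each gene both atg5 low nitrate T30 points lie below both atg5 high nitrate points, and ATG8H runs from 231 to 339 against 1235 to 3001.

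Only 2 further autophagy genes had a probe set that was named here and tested. AT5G66930, annotated as ATG101, a subunit of the kinase complex that starts autophagy, fell from 713 and 992 on high nitrate to 372 and 323 on low nitrate (-1.20 ± 0.29, adjusted p = 0.0197). ATG3, the enzyme that hands ATG8 to its lipid, read 1011 and 1031 on low nitrate against 1462 and 1974, and its difference of -0.72 ± 0.25 missed the threshold (adjusted p = 0.0809). The autophagy list as a whole thus had 10 of 11 tested members lower, 0 higher and a median of -1.26. Without the culture 2 high nitrate array none of the 9 ATG8 genes passed, with a median of -1.17. Without the culture 2 low nitrate array 1 passed, with a median of -1.35. Leaving out either culture 1 array kept 8. ATG101 passed without the culture 1 high nitrate array and in none of the other 3 fits that left out an array.

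CHI and OSM34 had the largest falls among genes with a symbol, followed by ADPG1 and BGLU46. Genes with a symbol were taken in order of size down to AMY1, after their values were seen. The chitinase gene CHI (AT2G43570), whose product cuts fungal cell wall chitin, read 558 and 71.6 on low nitrate against 4407 and 7600.0 on high nitrate (-4.56 ± 0.74, adjusted p = 0.00385). OSM34, an osmotin-like antifungal protein, read 112 and 58.2 against 1753 and 2824 (-4.31 ± 0.44, adjusted p = 0.000948). Neither gene's groups overlapped, and low nitrate lay wholly below high nitrate at 32.6% of all probe sets tested. Both genes were named for the size of their fall, so the lack of overlap adds no evidence. CHI differed more between the low nitrate cultures than OSM34 did.

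ADPG1 encodes a polygalacturonase that loosens pectin where organs open or are shed. Its signals were 12.3 and 20.4 on low nitrate against 373 and 1445 on high nitrate (-4.01 ± 0.63, adjusted p = 0.00327). BGLU46, a beta-glucosidase that acts on monolignol glucosides, read 37.4 and 18.8 against 383 and 1712 (-3.84 ± 0.50, adjusted p = 0.00163). Both genes were near the dim end of the arrays on low nitrate, where the added 32 compresses the difference.

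HIS1-3, a linker histone variant known from drought and low light, fell from 894 and 2652 on high nitrate to 117 and 59.9 on low nitrate (-3.75 ± 0.48). CYP71B23, a cytochrome P450, fell from 2317 and 2899 to 318 and 91.6 (-3.66 ± 0.54). CCOAMT, annotated as a caffeoyl-CoA 3-O-methyltransferase, fell from 866 and 1250 to 67.9 and 67.1 (-3.43 ± 0.55). In these 3 genes all low nitrate arrays lay below all high nitrate arrays, as at 32.6% of all probe sets tested. The genes were chosen for large falls among those that passed, so this is no further evidence. HIS1-3 and CYP71B23 were lower in the culture 2 low nitrate array than in the culture 1 array.

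SUFE2, an activator of the cysteine desulfurase that serves iron-sulfur cluster assembly, fell by 3.22 ± 0.44, from 596 and 1000 to 78.6 and 35.0. SAL2, a phosphatase related to SAL1, fell by 3.07 ± 0.51, and SBT3.3, a subtilase tied to immune priming, fell by 2.78 ± 0.57. AMY1, a secreted alpha-amylase, read 127 and 55.5 on low nitrate against 671 and 697 on high nitrate (-2.60 ± 0.45). Some smaller falls with a symbol were picked out of order. These were FDH, a formate dehydrogenase of mitochondria (-1.85 ± 0.27), and RING1, a ubiquitin ligase of the plasma membrane (-2.06 ± 0.31). AGL19, a MADS-box factor of flowering time (-1.96 ± 0.30), and the cell wall fructosidase gene cwINV6 (-2.08 ± 0.43) were also picked. Larger falls, such as CYP71B24 (-2.31) and MSRB9 (-2.20), were passed over. FDH was bright in every array, at 2516 and 2208 against 9356 and 7893. Of the 13 genes from CHI to AMY1 in size, PDF1.2 and ATG8H included, 4 passed without the culture 2 high nitrate array and 5 without the culture 2 low nitrate array. Without the culture 1 arrays 12 (high nitrate) and 13 (low nitrate) passed.

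Among probe sets with 1 gene, some of the largest falls belong to loci that carry no symbol in the reference, and no role is given for them here. AT3G61930 had the largest fall, from 1114 and 2601 on high nitrate to 29.5 and 2.1 on low nitrate (-5.25 ± 0.59, adjusted p = 0.00125). AT1G62760 fell from 2481 and 6954 to 122 and 53.1 (-5.19 ± 0.58), and AT1G30700 fell from 950 and 3297 to 62.7 and 5.50 (-4.92 ± 0.64). In each of them the culture 2 high nitrate array was the highest of the 4 and the culture 2 low nitrate array the lowest. AT4G16260 (-4.66 ± 0.40), AT2G31945 (-4.62 ± 0.79), AT5G39520 (-4.53 ± 0.70), AT1G68620 (-4.23 ± 0.49), AT2G37750 (-4.21 ± 0.48) and AT3G28510 (-4.05 ± 0.58) completed the rule's choice. All 9 of these loci passed without either culture 1 array, 6 passed without the culture 2 high nitrate array and 7 without the culture 2 low nitrate array.

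EXO and THI2.2 had the largest rises among the genes named. EXO, EXORDIUM, a cell wall protein that promotes cell expansion, read 3697 and 1265 on low nitrate against 313 and 195 on high nitrate (2.97 ± 0.43, adjusted p = 0.00246). THI2.2, a thionin, read 1419 and 2100.2 against 231 and 174 (2.92 ± 0.39, adjusted p = 0.00177). The groups lay well apart in both genes, which were named for the size of their rise. The higher low nitrate array was that of culture 1 for EXO and that of culture 2 for THI2.2.

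SKU5, a glycosylphosphatidylinositol-anchored protein of directed growth, read 2307 and 4229 on low nitrate against 947 and 703 (1.90 ± 0.35). ACT11, an actin, read 531 and 603 against 159 and 121 (1.81 ± 0.23), and TUB7, a beta-tubulin, read 1033 and 1134 against 495 and 376 (1.27 ± 0.22). GH9B13, an endoglucanase-family protein, rose by 2.43 ± 0.51, and CSLA03, a glucomannan synthase, rose by 1.60 ± 0.28. XTH16, an enzyme that remodels xyloglucan, rose by 1.22 ± 0.29, from 276 and 148 to 518 and 519. The list of cell wall expansion genes had 2 tested members, and neither passed.

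PYK10, a beta-glucosidase of ER bodies and a root marker on the list above, read 1142 and 1007 on low nitrate against 228 and 272 on high nitrate (1.97 ± 0.33, adjusted p = 0.00449). The other root marker with a named probe set, EXPA7, was too dim to be tested, at 47.1 and 52.3 against 7.30 and 15.6. Both root markers were therefore above their high nitrate values in both cultures, and the part of root tissue in the result was not tested. BGLU47, another beta-glucosidase, rose by 2.7 ± 0.48, from 144 and 83.4 to 833 and 963.

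GSA1, HEME1 and CHLI2, which encode enzymes of tetrapyrrole and chlorophyll synthesis, were among the rises with a symbol, again named after their values were seen. HEME1 and CHLI2 were not taken in order of size, and larger rises such as VPS2.2 (1.31) and UPP (1.24) were passed over. GSA1 makes 5-aminolevulinic acid, and its signals were 2991 and 2389 on low nitrate against 860.1 and 912 on high nitrate (1.56 ± 0.30, adjusted p = 0.00775). HEME1, a uroporphyrinogen decarboxylase, read 2687 and 3095 against 1142 and 1301 (1.22 ± 0.25). CHLI2, a subunit of magnesium chelatase, read 1074 and 1010.3 against 486 and 422 (1.15 ± 0.21). All low nitrate arrays of these genes lay above all their high nitrate arrays. The genes were taken from those that passed, so this is no further evidence, and the share of all probe sets doing so was not counted. TAPX, the thylakoid ascorbate peroxidase, rose by 1.32 ± 0.29. PRL, an MCM7 subunit of the DNA replication helicase, rose by 1.14 ± 0.24, from 216 and 225 to 517 and 529, and STOMAGEN, a peptide that promotes stomata, rose by 1.11 ± 0.28.

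Largest rises at loci with no symbol were AT1G23205 (2.89 ± 0.40), AT3G44970 (2.89 ± 0.54) and AT1G13650 (2.87 ± 0.49). AT1G13650 read 2382 and 1917 on low nitrate against 412 and 168 on high nitrate. AT2G33850, AT1G70270, AT3G26960, AT3G48460 and AT4G29030 followed, with differences from 2.22 to 2.58. Of the 12 rises with a symbol from EXO to SOL1 in size, 3 passed without the culture 2 high nitrate array and 3 without the culture 2 low nitrate array. Without the culture 1 arrays 9 (high nitrate) and 10 (low nitrate) passed. Of the 8 loci, 1 passed without either culture 2 array, 8 without the culture 1 high nitrate array and 6 without the culture 1 low nitrate array. GSA1, HEME1, CHLI2 and TAPX all missed the threshold without either culture 2 array.

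**Figure D2:**
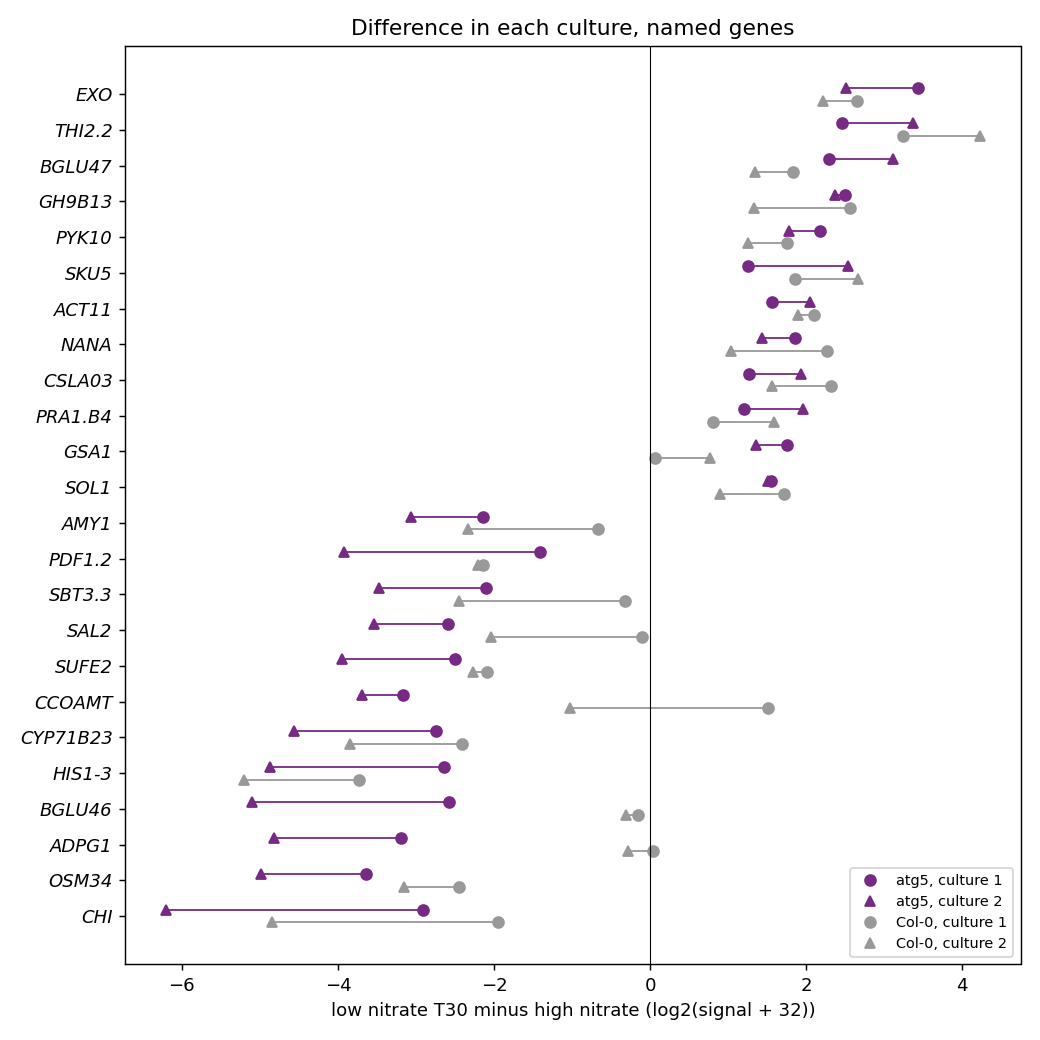
Difference (low nitrate T30 minus high nitrate, log2(signal + 32)) in each culture for 24 named genes, in atg5 (purple) and Col-0 (grey), with circles for culture 1 and triangles for culture 2. The genes were taken for one direction in both atg5 cultures, and CHI spans a wider range between cultures than OSM34.

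The lists for nitrogen, senescence and defence had few named probe sets, 58 tested members in 24 lists outside the organelle genomes, so most members are not described here. NRT2.5, a high-affinity nitrate transporter of nitrogen-starved plants, was dim, at 27.5 and 37.0 on low nitrate against 57.5 and 92.1 on high nitrate (-0.72 ± 0.64, adjusted p = 0.491). It was the one tested member of the nitrate transport list, and the nitrate signalling list had none.

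Senescence genes were represented by 3 members, of which 2 passed as lower, against 8.15% of all probe sets. WRKY6, a senescence and defence factor, read 67.3 and 43.4 on low nitrate against 147 and 204 on high nitrate (-1.25 ± 0.28, adjusted p = 0.0151). PPDK, which helps to form the amino acids exported from ageing leaves, read 1544 and 1718 against 3976 and 5457 (-1.5 ± 0.36, adjusted p = 0.0191). SAG29, the sugar exporter SWEET15, did not pass, and its groups overlapped. Its difference of 0.30 averages opposite changes, 2.36 in culture 1 and -1.77 in culture 2. Neither WRKY6 nor PPDK passed without either culture 2 array, and PPDK also missed without the culture 1 low nitrate array.

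Amino acid breakdown had 5 tested members, all below 0, of which 2 passed as lower, against 8.15% of all probe sets. AT5G38710, a proline dehydrogenase gene, read 107 and 74.7 on low nitrate against 839 and 2138 on high nitrate (-3.50 ± 0.46, adjusted p = 0.00163). AT4G33150, annotated as LKR/SDH, the bifunctional first enzyme of lysine breakdown, read 618 and 144 against 1424 and 3277 (-2.7 ± 0.67, adjusted p = 0.0229). The other three members, IVD, MCCA and D2HGDH, had differences of -0.97, -0.96 and -0.41. Without either culture 2 array AT5G38710 passed and AT4G33150 did not.

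PDF1.2, a plant defensin induced by jasmonate and ethylene, read 1006 and 149 on low nitrate against 2727 and 2717 on high nitrate (-2.67 ± 0.73, adjusted p = 0.0335). Its close copy PDF1.2b read 1338 and 133 against 2281 and 2169 and missed the threshold (-2.25 ± 0.73, adjusted p = 0.0611). The probe sets of such close copies may read each other's RNA. In both genes the low value came from the culture 2 low nitrate array: without it the differences were -1.30 and -0.88, and neither passed. PDF1.2 also missed without either high nitrate array.

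None of the 3 salicylic acid and defence genes tested passed. WRKY53, a senescence and defence factor, read 529 and 41.8 on low nitrate against 848 and 910.4 (-2.16 ± 0.75, adjusted p = 0.0777). SAG101, a partner of EDS1 in immunity, read 172 and 112 against 341 and 326 (-1.09 ± 0.34, adjusted p = 0.0544). GRX480, a glutaredoxin, had a difference of -1.27 (adjusted p = 0.299). The median was -0.65 in culture 1 and -2.26 in culture 2.

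ERDJ3B, a cochaperone of the endoplasmic reticulum, was lower on low nitrate (-0.97 ± 0.28, adjusted p = 0.0373), and it missed the threshold without any 1 of the 4 arrays. The other 2 members of its list, BZIP28 and BZIP60, did not pass. Of the 5 flavonoid and anthocyanin genes none passed, and all had differences from 1.08 to 1.37. None of the 6 photosynthesis genes passed (median 0.33), and none of the 4 proteases passed (median -0.64, with gamma-VPE at -1.02 and beta-VPE at -1.34). The abscisic acid and cold list had 0 of 4 past the threshold, and the glucosinolate and the sugar and starch lists each had 0 of 2. Single tested members of the proteasome, clock, oxidative stress and flower lists also missed it, with differences of -0.12 for RPN12a, -0.81 for GI, -1.04 for NDB2 and 0.37 for AGL24. The phosphate and iron, cell cycle, heat shock and seed lists had no tested member.

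To see where atg5 differs from the wild type, the same contrast was taken in Col-0, which shares no array with it. Low nitrate T30 Col-0 rosettes differed from high nitrate ones at 1206 probe sets (8.84%), 506 higher (3.71%) and 700 lower (5.13%). That count was 74 to 2202 when 1 Col-0 array was left out, and 328 without the 2 arrays of the series that stand apart, of which the culture 1 low nitrate Col-0 array is 1. The differences of the 2 genotypes correlated across probe sets with r = 0.70 (0.44 in culture 1 and 0.78 in culture 2), given as a description. The genotypes shared 290 of the higher probe sets, 39.0% of those in atg5 and 57.3% of those in Col-0. They shared 402 of the lower ones, 36.2% and 57.4%.

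A test of the difference between the genotypes passed at 0 probe sets in limma, with 839 at an unadjusted p under 0.05 and a smallest adjusted p of 0.176. It gave 210 probe sets without the culture 2 low nitrate Col-0 array, 16 without the culture 1 high nitrate atg5 array and 7 without the culture 2 high nitrate Col-0 array. Without the culture 2 low nitrate Col-0 array, that group rests on the culture 1 array that stood apart. Because 0 probe sets passed with all arrays, no gene is called particular to atg5. The values of both genotypes follow side by side. Over the 744 probe sets higher in atg5 the median difference was 1.1 in atg5 and 0.85 in Col-0, and over the 1112 lower ones it was -1.45 in atg5 and -0.88 in Col-0. These sets were chosen on the atg5 values. Over the probe sets chosen instead on Col-0, the median of the 506 higher ones was 0.98 in atg5 and 1.26 in Col-0, and that of the 700 lower ones was -1.09 and -1.39. Each median was the larger in the genotype that had chosen the set.

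The genotypes gave like differences for some of the rises named. EXO differed by 2.43 in Col-0, THI2.2 by 3.73, ACT11 by 1.99, SKU5 by 2.26 and PYK10 by 1.5, and all of these passed there too. GSA1 differed by 0.42 in Col-0, where it read 1133 and 1521 against 1079 and 881 and did not pass. HEME1 (0.53) and CHLI2 (0.61) did not pass in Col-0 either.

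The falls named likewise included genes that passed in Col-0 and genes that did not. Over all probe sets past the threshold in atg5, the shares also passing in Col-0 were alike for rises (39.0%) and falls (36.2%). HIS1-3 (-4.46), OSM34 (-2.80), CHI (-3.39), CYP71B23 (-3.13) and FDH (-2.43) passed in Col-0. ADPG1 read 19.2 and 11.0 on low nitrate against 18 and 20.2 on high nitrate in Col-0, so it was dim in all 4 Col-0 arrays (-0.12). BGLU46 was likewise dim there, between 12.7 and 50.2 in all 4 arrays. The signals of ADPG1 and BGLU46 stood out in the atg5 high nitrate arrays alone among these 8.

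The 5 probe sets with 1 gene and the smallest p for the genotype difference were AT1G62760, AT5G40690, AT3G61930, AT5G38710 and AT3G47540. In AT1G62760 the atg5 difference exceeded that of Col-0 by -5.08 ± 0.82 (adjusted p = 0.176), and Col-0 read 159 and 61.5 on low nitrate against 59.5 and 197 on high nitrate. AT5G38710 read 142 and 56.5 against 59.9 and 141 in Col-0, a difference of -0.02. In Col-0 both genes rose in culture 1 and fell in culture 2, by 1.06 and -1.29 for AT1G62760 and by 0.92 and -0.96 for AT5G38710. Their means near 0 thus average opposite changes, and culture 1 uses the Col-0 low nitrate array that stood apart. For ATG8H the Col-0 signals were 219 and 354 against 342 and 351 (-0.28), and the genotype difference of -2.37 ± 0.60 had an adjusted p of 0.378. The ATG8 family had a median of -0.79 in Col-0, where ATG8D, ATG8F and ATG8I passed.

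**Figure D3:**
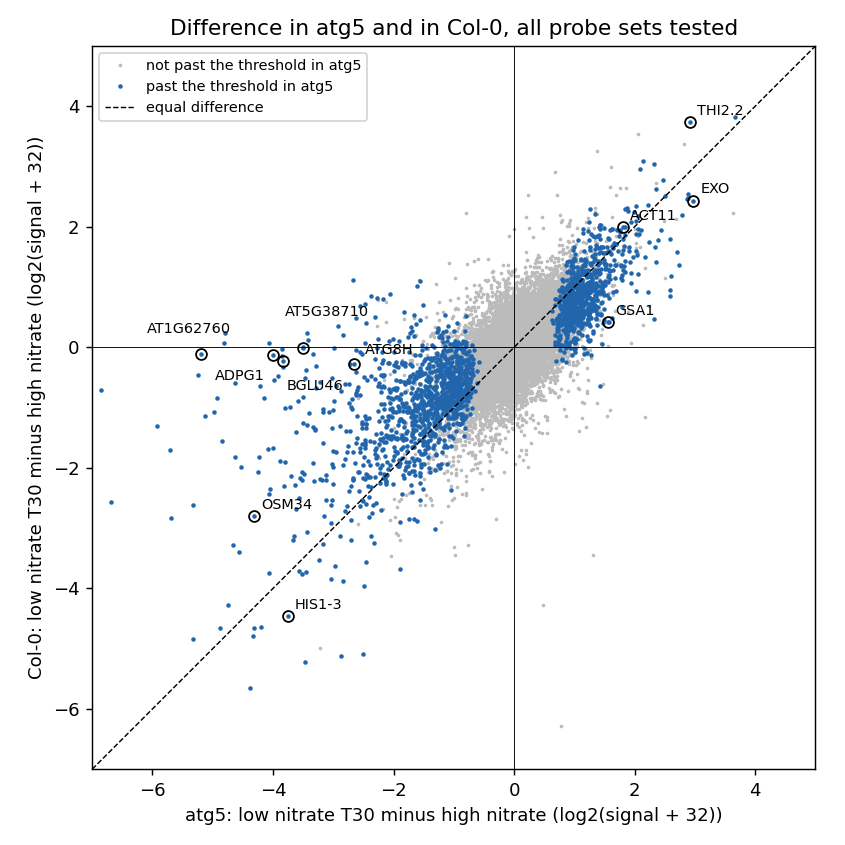
Difference (low nitrate T30 minus high nitrate, log2(signal + 32)) in atg5 (x axis) and Col-0 (y axis) for the 13648 probe sets tested, with those past the threshold in atg5 in blue and some named genes ringed. THI2.2, EXO, ACT11 and HIS1-3 lie near the line of equal difference, whereas ADPG1, BGLU46, AT1G62760 and AT5G38710 lie near 0 in Col-0.

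Because the high nitrate rosettes may be 30 or 60 days old, they were also set beside the atg5 low nitrate rosettes of 60 days. That contrast uses the same high nitrate arrays, so its values are not independent of those above. Low nitrate T60 differed from high nitrate at 13 probe sets (0.0953%), 4 higher (0.0293%) and 9 lower (0.0659%), and 1760 had an unadjusted p below 0.05. Leaving out the culture 2 low nitrate T60 array gave 305, leaving out the culture 1 one gave 6, and a fit of the 6 atg5 arrays alone gave 0. The culture 1 T60 array is the one with the high actin ratio. None of the 9 ATG8 genes passed, and their median was 0.40, against -1.36 at T30. ATG8H read 4943 and 2339 at T60, ADPG1 read 1545 and 5124, CHI read 5052 and 8056, and OSM34 read 1629 and 1456. EXO read 437 and 444 and THI2.2 read 150 and 213. These genes were chosen for a wide gap between T30 and high nitrate, and their T60 signals lay on the high nitrate side of it. Other genes past the threshold at T30 did not follow them. PUB26, a ubiquitin ligase gene, read 311 and 271 at T60, 268 and 351 at T30 and 83.2 and 135 on high nitrate. FHL, a gene of phytochrome A signalling, read 56.2 and 66.0 at T60, at most 37.4 at T30 and 164 and 342 on high nitrate.

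Age-dependent probe sets were then defined on Col-0 and atg9 alone, as those at least 2-fold higher or lower at T60 than at T30 on low nitrate in both cultures of both genotypes. The rule gave 330 higher and 264 lower probe sets. For the 330, the median level (log2(signal + 32)) in atg5 was 8.38 and 8.12 on low nitrate at T30, 9.41 and 9.90 on high nitrate and 9.94 and 10.11 on low nitrate at T60. The high nitrate mean was nearer to T60 than to T30 for 283 of the 330 (85.8%), with 68.8% in culture 1 and 90.3% in culture 2. For the 264 lower probe sets the medians were 9.76 and 9.92 at T30, 8.84 and 8.39 on high nitrate and 7.82 and 8.14 at T60. Here 214 (81.1%) were nearer to T60, with 52.3% in culture 1 and 88.3% in culture 2. The culture 1 shares use the T60 array with the high actin ratio. Over all probe sets tested the share nearer to T60 was not counted, so these shares are not read as particular to the age-dependent sets. The median absolute difference from high nitrate over all probe sets was 0.27 for T60 and 0.40 for T30.

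Across all probe sets tested the high nitrate arrays correlated with the low nitrate T30 arrays at r = 0.91 in culture 1 and 0.78 in culture 2, and with the low nitrate T60 arrays at 0.87 and 0.95. The culture 2 high nitrate array was thus closer to T60 than to T30 by this measure, and the culture 1 array was not. The culture 1 T60 values come from the array with the actin ratio of 9.05, and the effect of that array was not tested. The levels were measured in atg5 and the sets were chosen in other genotypes, but a response to nitrate at the same probe sets would give the same values. Age and nitrate cannot be told apart by them.

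**Figure D4:**
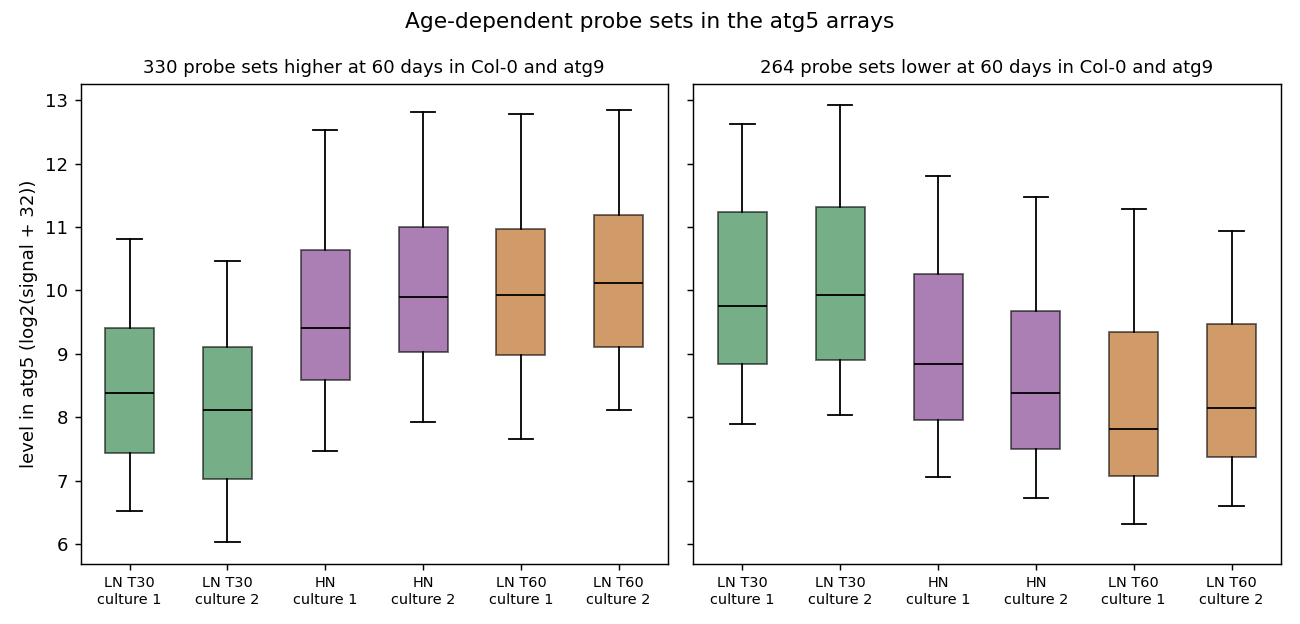
Levels (log2(signal + 32)) in the 6 atg5 arrays of the 330 probe sets higher (left) and the 264 lower (right) at T60 than at T30 in Col-0 and atg9. Boxes span the quartiles with the median as a line, and whiskers run from the 5th to the 95th percentile of probe sets. LN is low nitrate and HN high nitrate, and the high nitrate medians of 9.41 and 9.90 (left) lie nearer the T60 than the T30 medians of their culture. On the right the culture 2 median of 8.39 does so too, whereas the culture 1 median of 8.84 lies nearer its T30 median of 9.76 than its T60 median of 7.82. The culture 1 T60 array is the one with the high actin ratio.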

How the data were processed

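Total RNA of whole rosettes was hybridised to 1-colour Affymetrix arrays. The deposited values are MAS5 signal intensities, per the submitters' processing notes; the version is not given in the sources used here. Each array's 2% trimmed mean came out near 500, so the intensities are scaled to a common mean. Here 32 was added, log2 taken, and 64 control probe sets and those under the 40th percentile of mean level (signal 97.6) left out. limma 3.58.1 in R 4.3.3 fitted all 16 arrays in 8 groups of 2, with culture as a block and a trended eBayes. The fit was also run on simulated arrays with independent noise and no culture effect, so arrays that stand apart were not covered. The labels state that the number marks a culture, which pairs the arrays; deviations of same-numbered arrays correlated at -0.161 in atg5 between both nitrate groups and at -0.168 to 0.707 over 28 pairs of groups.

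Named by rule were the 12 largest rises and 12 largest falls among passing probe sets that name 1 gene and move alike in both cultures. Added to these were up to 4 members per list by p, and the 5 smallest interaction p. Further genes with a symbol were picked after the values were seen, in order of size down to AMY1 and SOL1 and by choice below those. The brightest probe set stood for a gene. Of 22810 probe sets 13436 had 1 gene through RefSeq and 503 several; 8794 are unnamed here. Of 474 list members 448 matched by locus and symbol. The members and lists were chosen with earlier results of these data known. With 2 cultures of pooled plants per group, p-values rest on few samples. Alternatives changed the block, scaling, pseudocount, filter, trend, arrays fitted and each replicate.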

Additional observations from a re-analysis of the deposited data

How the results depend on the processing

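The count of 1856 probe sets for atg5 ran from 88 to 1438 when 1 array was left out; an array left alone in its group is then assumed to vary like the other groups. It was 1673 with no replicate block, 1743 after quantile normalization, 1543 with no filter, 1431 with fewer arrays in the fit and 2604 without the 2 arrays that stand apart. With 1926 at a pseudocount of 64 and 1699 with a floor of 1, every other alternative stayed within 1.5 times the main count. Crossed pairing of the cultures, chosen after seeing the data, gave 1903. The Col-0 count ran from 74 to 2202 with 1 array left out, and was 328 without the 2 arrays that stand apart. The genotype difference ran from 0 to 210 probe sets with 1 array left out and was 0 otherwise. Low nitrate T60 against high nitrate ran from 0 to 305 with 1 array left out, and was 0 with fewer arrays in the fit. The causes were not tested. Of 91 named genes past the threshold, ATG101 not counted, 16 passed under every alternative that tested them; 75 missed it without the culture 2 high nitrate array and 69 without the culture 2 low nitrate array. No named gene changed direction while past the threshold. With 2 arrays a group, their number limits the precision.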

Other observations

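The cultures gave unlike differences in plastid-encoded genes. Of 69 tested, 1 passed, against 13.6% of all probe sets, and the median difference was 0.10 in culture 1 and -0.72 in culture 2. psbA, which encodes the D1 protein of photosystem II, read 8465 and 633 on low nitrate T30 against 9012 and 8514 on high nitrate. atpB, a subunit of the chloroplast ATP synthase, read 25414 and 3277 against 27138 and 24157. In both genes the culture 2 low nitrate array stood far below the other three. The difference was lower in culture 2 than in culture 1 for 52 of the 69, and it was above 0 for 41 in culture 1 and for 21 in culture 2. The matching counts over all probe sets tested were not made. Over all of those the median difference was -0.01 in culture 1 and 0.02 in culture 2. Among those above 0 in both cultures, rpl20 had differences of 1.21 and 1.2, and rps14 had 1.07 and 1.82, and neither passed. The same culture of Col-0 also read low on low nitrate T30, at 325 for psbA against 9115 in culture 1. ycf3, an assembly factor of photosystem I, was the one that passed (1.42 ± 0.43, adjusted p = 0.0491), and it missed the threshold after quantile normalization, with no replicate block and without any 1 of the 4 arrays.

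The 5 mitochondrial genes tested did not pass. Their median difference stood at -0.34 (culture 1) and -1.64 (culture 2), with cox1 at 260 and 167 on low nitrate T30 against 353 and 675 on high nitrate (-1.11 ± 0.35, adjusted p = 0.0559).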
